A study of Arabidopsis thaliana and Arabidopsis thaliana x Arabidopsis arenosa with 9 samples.

Results

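Of 33602 loci counted in young hybrid seeds of Arabidopsis thaliana, 121 were at least 4 times higher when accession Col-0 was the seed parent than when accession C24 was. They were chosen on a scaled read count (RPM, a locus's share of all counted reads of its library times 1000000). The lower of the 2 libraries of Col-0 X C24 had to reach 5 RPM and to be at least 4 times the higher of the 2 libraries of C24 X Col-0. The minimum was met by 12776 loci, of which the members made up 0.947%. Because the values of these 4 libraries chose the members, their difference between the crosses is a description here and no test is read from it.

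The seeds came from the reciprocal crosses ColA9 pollinated by C24, called Col-0 X C24 (seed parent first), and C24A9 pollinated by Col-0, called C24 X Col-0. Whole seeds were taken 3 days after pollination, with 2 biological replicates of each cross. ColA9 and C24A9 are male-sterile lines of each accession, hemizygous for a sterility construct, and the pollen came from wild-type plants. Both crosses therefore gave F1 hybrid embryos of the same 2 genomes and differed in which accession supplied the egg, the larger share of the endosperm genome and the whole seed coat. The study set these crosses as controls for hybrids with Arabidopsis arenosa, for which no counts were used here.

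A seed of this age holds a small embryo, an endosperm that feeds it and a seed coat built from the mother plant alone. A transcript that depends on the seed parent can come from maternal tissue whose accession differs between the crosses, from the unequal maternal and paternal dose of the endosperm, or from imprinting, in which the copy from 1 parent is silenced. In RNA of whole seeds these sources are pooled, and fewer cells of a type and less RNA per cell cannot be told apart. Reads of both crosses were aligned to gene models of accession Columbia (Col-0). Less RNA from a C24 copy and fewer of its reads being aligned cannot be told apart either. Accessions of this species differ in many genes of defence and secondary metabolism, some of which are present in 1 accession and deleted or silenced in another.

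The 4 libraries held between 3538335 and 6498145 counted reads. Replicate 2 of each cross was treated with a duplex-specific nuclease, which removes abundant sequences, and amplified again, so the replicate number also marks a treatment. A count of 3, taken as the floor, was worth 0.462 and 0.848 RPM in Col-0 X C24 and 0.492 and 0.543 RPM in C24 X Col-0. Summed over a list of flavonoid and tannin genes of the seed coat, libraries held 24156 and 12092 RPM in Col-0 X C24 and 40702 and 17903 RPM in C24 X Col-0, while 4 genes of green tissue summed to 932 and 471 RPM in Col-0 X C24 and 1698 and 1547 RPM in C24 X Col-0. In either replicate both sums were lower in Col-0 X C24, the seed coat sum overlapping between the crosses, and their part in the members' values was not tested. Most of the seed coat gap came from TT4 (AT5G13930), with 11042 and 1664 RPM in Col-0 X C24 and 22050 and 6160 RPM in C24 X Col-0. Genes of that list did not all go the same way. TTG1 (AT5G24520) had 42.3 and 44.7 RPM in Col-0 X C24 and 36.5 and 37.7 RPM in C24 X Col-0. The 9 endosperm regulators summed to 66.5 and 151 RPM in Col-0 X C24 and 73.1 and 176 RPM in C24 X Col-0, and the 7 embryo regulators summed to 165 and 218 RPM in Col-0 X C24 and 125 and 123 RPM in C24 X Col-0. Most of the embryo sums came from ATML1 (AT4G21750), with 158 and 177 RPM in Col-0 X C24 and 119 and 90.2 RPM in C24 X Col-0. The 2 pollen and tapetum markers summed to under 2 RPM in the other libraries and to 13.0 RPM in C24 X Col-0 replicate 2.

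Together the members took 1.58% and 1.29% of the reads in Col-0 X C24, against 0.146% and 0.130% in C24 X Col-0. The 95% Wilson intervals of the shares, which cover counting error only, were 1.57% to 1.59% and 1.28% to 1.30% in Col-0 X C24 and 0.143% to 0.149% and 0.127% to 0.133% in C24 X Col-0. The median member stood at 19.4 and 20.1 RPM in Col-0 X C24 and at 0.492 and 1.63 RPM in C24 X Col-0. No member was without reads in either Col-0 X C24 library, whereas 40 had none in C24 X Col-0 replicate 1 and 7 had none in replicate 2, the same 7 loci that had none in either. The lower Col-0 X C24 value was under 10 RPM in 37 members, between 10 and 100 RPM in 69 and at 100 RPM or above in 15. The ratio of the lower Col-0 X C24 value to the higher C24 X Col-0 value had a median of 9.10. It was under 6 in 43 members and 10 or more in 55.

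**Figure D1:**
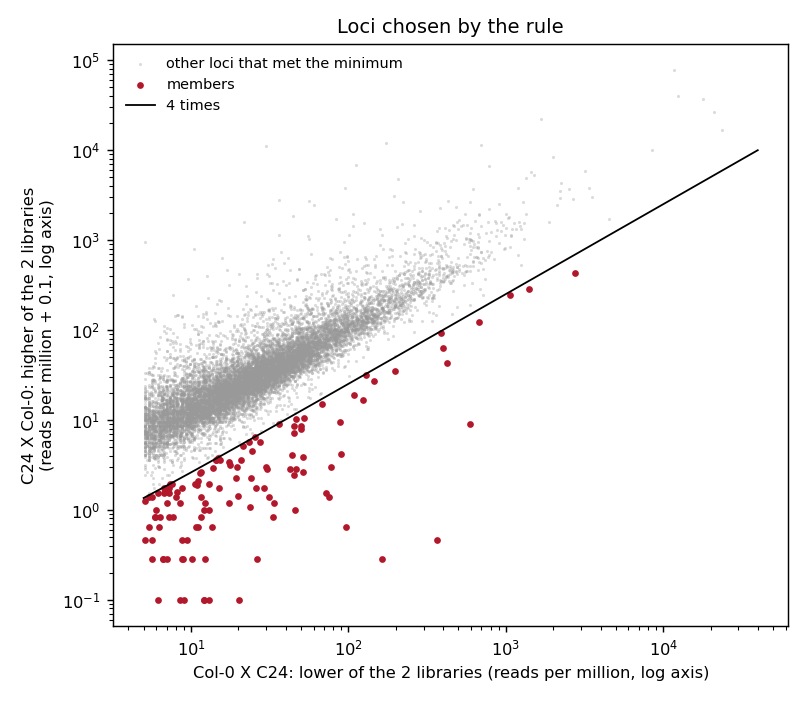
Each point is a locus that met the minimum of 5 RPM in both Col-0 X C24 libraries, with the lower Col-0 X C24 value on the horizontal axis and the higher C24 X Col-0 value, plus 0.1 RPM, on the vertical axis, both logarithmic. The 121 members (red) lie under the line of a 4-fold ratio, and 7 of them sit on the bottom row at 0 reads in both C24 X Col-0 libraries.

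Around the fold threshold the values were continuous. AT1G34040, a pyridoxal phosphate-dependent transferase, entered with a ratio of 4.01, AT1G79160 with 4.06 and the uncharacterized AT4G16447 with 4.09. Just outside were the F-box gene AT1G25055, with 59.4 and 46.1 RPM in Col-0 X C24 and 11.8 and 10.1 RPM in C24 X Col-0, TSA1 (AT1G52410) at a ratio of 3.85, and AT4G34070 at 3.76. At the minimum, the pseudogene AT2G13975 (lower value 5.08 RPM), AT4G34881 (5.09 RPM) and ARAD2 (AT5G44930, an arabinan synthesis gene, 5.37 RPM) were the lowest members, and AT5G47445 (4.92 RPM), SDH3-2 (AT4G32210, a subunit of mitochondrial succinate dehydrogenase, 4.77 RPM) and AT4G01593 (4.77 RPM) fell short.

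A pair of pectin methylesterases, enzymes that strip methyl groups from pectin and so change the stiffness of cell walls, were among the strongest members. AT1G11590 (chromosome 1, 3892580 to 3894677, 3 exons) had 2378 and 1394 reads, 366 and 394 RPM, in the Col-0 X C24 libraries, against 1 and 2 reads, 0.164 and 0.362 RPM, in the C24 X Col-0 libraries. The groups lay 1010.3 times apart, with a 95% counting interval of 279 to 8347 from the 2 reads behind the denominator. AT4G03930 (chromosome 4, 1870422 to 1872387, 3 exons) had 592 and 593 RPM in Col-0 X C24, against 8.85 and 3.98 RPM in C24 X Col-0. Both genes were at nearly the same level in the 2 Col-0 X C24 libraries and at least 66.9 times lower in either library of the other cross.

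The 2 genes are close copies on different chromosomes, with coding sequences of 1575 bases each that were identical at 1472 bases (93.5%). The 60-base coding stretch that differed most, at 15 bases, is shown to make plain that reads can separate the copies. It is read from the RefSeq assembly TAIR10.1, plus strand, at coding positions 1183 to 1242 of both genes, chr1:3894228-3894287 for the first and chr4:1871995-1872054 for the second, with the differing bases in capitals.
AT1G11590: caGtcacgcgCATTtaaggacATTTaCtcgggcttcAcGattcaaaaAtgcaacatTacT
AT4G03930: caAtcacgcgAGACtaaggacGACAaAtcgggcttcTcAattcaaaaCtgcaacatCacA
Their upstream regions were also alike. Of the 250 bases before each annotated start, 164 lay in runs of 15 or more bases found in both windows, and these runs are in capitals in the stretches from the first to the last of them, chr1:3892383-3892569 and chr4:1870172-1870357, plus strand.
AT1G11590: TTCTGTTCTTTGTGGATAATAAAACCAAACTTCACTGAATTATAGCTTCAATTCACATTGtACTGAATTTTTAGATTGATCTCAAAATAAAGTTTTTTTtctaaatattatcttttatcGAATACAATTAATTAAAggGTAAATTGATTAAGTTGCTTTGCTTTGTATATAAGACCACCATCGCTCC
AT4G03930: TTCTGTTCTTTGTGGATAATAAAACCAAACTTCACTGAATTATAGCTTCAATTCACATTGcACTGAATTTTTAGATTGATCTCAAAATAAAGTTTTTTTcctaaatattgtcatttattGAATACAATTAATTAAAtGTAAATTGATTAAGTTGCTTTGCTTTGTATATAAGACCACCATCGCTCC

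Other loci of this enzyme family did not follow the pair to the same level. AT3G27980, a further copy, shared 95.6% of its 1494 aligned coding bases with AT1G11590 but had only 13 and 6 reads in Col-0 X C24 and 2 and 4 reads in C24 X Col-0. The neighbour of AT1G11590, PMEPCRA (AT1G11580), was itself a member with 217 and 109 RPM in Col-0 X C24 and 19.0 and 13.9 RPM in C24 X Col-0, and its coding sequence was 62.9% identical to that of AT1G11590. On chromosome 3 the long noncoding RNA AT3G27990, which overlaps AT3G27980 on the opposite strand, was a member with 6.46 and 6.22 RPM in Col-0 X C24, against 0 and 0.543 RPM in C24 X Col-0. Near it AT3G27999, of the superfamily of pectin methylesterase inhibitors, had 11.5 and 16.4 RPM in Col-0 X C24, against 0.492 and 1.27 RPM in C24 X Col-0. Of the 80-base windows of AT1G11590, 10.3% also occurred in another counted locus on either strand, and for AT4G03930 the share was 0.468%, so reads of the first could in part be assigned to its relatives. By product names, which did not catch PMEPCRA, 4 members counted as cell wall enzymes, of 99 such loci at the minimum. They were AT1G11590, AT4G03930, AT3G27999 and CSLA10 (AT1G24070), of a family of mannan synthases, with 10.6 and 15.5 RPM in Col-0 X C24 and 0 and 1.81 RPM in C24 X Col-0.

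**Figure D2:**
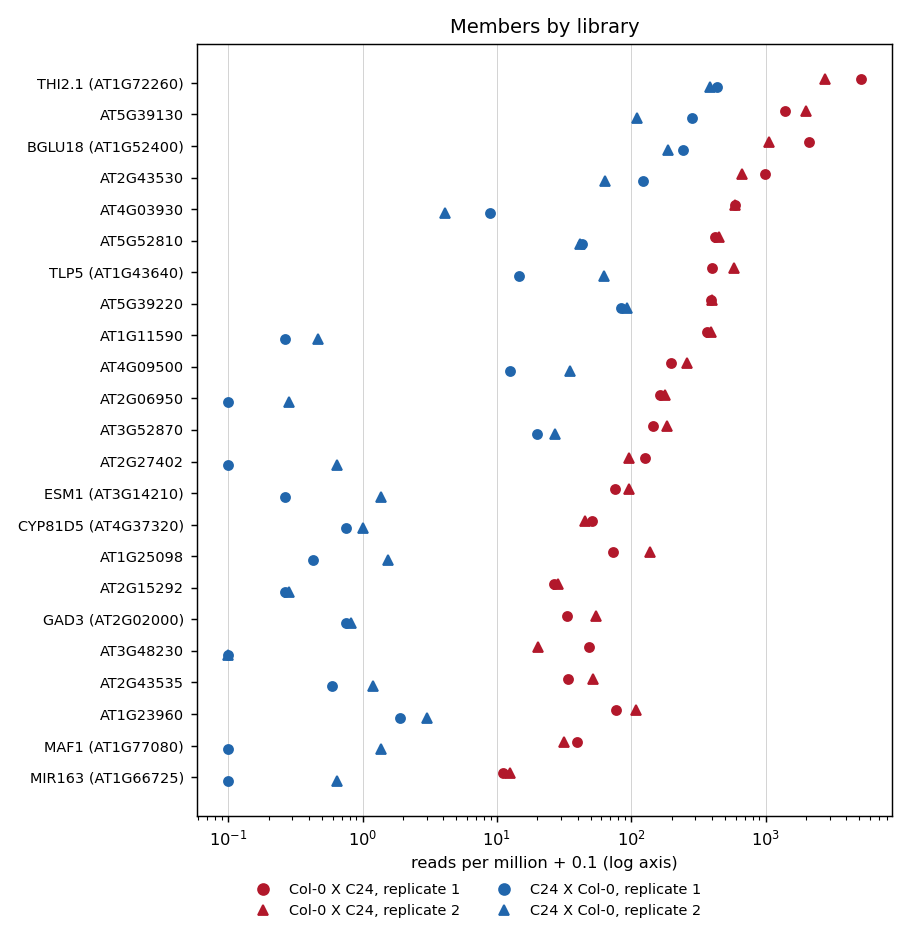
RPM plus 0.1 on a logarithmic axis for the 12 members with the highest lower Col-0 X C24 value, the 12 with the highest ratio, and the regulators MAF1 and MIR163, 1 row per member, with Col-0 X C24 libraries in red and C24 X Col-0 libraries in blue (circles replicate 1, triangles replicate 2). The red and blue points of each row do not overlap, and AT1G11590 shows the widest gap, 366 and 394 RPM in Col-0 X C24 against 0.164 and 0.362 RPM in C24 X Col-0.

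Small defence proteins included the member with the most reads. THI2.1 (AT1G72260), a thionin, which is a cysteine-rich antimicrobial peptide, had 5121 and 2759 RPM in Col-0 X C24, against 434 and 385 RPM in C24 X Col-0. It was the most abundant member in all 4 libraries. A neighbouring pair on chromosome 2 encodes knottins, small proteins held by a knot of disulfide bridges. AT2G43530 had 993 and 670.4 RPM in Col-0 X C24 and 123 and 63.6 RPM in C24 X Col-0, and AT2G43535 had 33.7 and 52.0 RPM in Col-0 X C24 and 0.492 and 1.09 RPM in C24 X Col-0. The more abundant of the neighbours thus had the smaller ratio, 5.45 against 31.0. AT5G39130, a cupin of a cluster of near-identical genes, had 1398 and 2003 RPM in Col-0 X C24, against 283 and 109.6 RPM in C24 X Col-0. It shared 24.3% of its windows with AT5G39190 (GER2) and AT5G39160, so part of its count is uncertain. Neither was a member, and AT5G39160 had 591 and 707 RPM in Col-0 X C24, against 187 and 75.5 RPM in C24 X Col-0.

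Genes of glucosinolate breakdown and of the endoplasmic reticulum bodies were among the members. Glucosinolates are sulfur compounds of the cabbage family that myrosinases cut when tissue is damaged, and ESM1 (AT3G14210, epithiospecifier modifier 1) shifts the products towards isothiocyanates. ESM1 had 488 and 342 reads, 75.1 and 96.7 RPM, in Col-0 X C24, against 1 and 7 reads, 0.164 and 1.27 RPM, in C24 X Col-0, a ratio of 59.2. ESP (AT1G54040), the epithiospecifier protein that ESM1 counteracts, met the mirrored rule, with 1.23 and 0.283 RPM in Col-0 X C24 and 30.6 and 42.9 RPM in C24 X Col-0. MBP1 (AT1G52040), a myrosinase-binding protein, had 219 and 89.3 RPM in Col-0 X C24 and 4.10 and 3.98 RPM in C24 X Col-0. BGLU18 (AT1G52400), a beta-glucosidase stored in endoplasmic reticulum bodies, had 2113 and 1068 RPM in Col-0 X C24, against 243 and 187 RPM in C24 X Col-0. Its neighbour TSA1, named above, missed the fold with 239.9 and 196 RPM in Col-0 X C24 and 40.2 and 50.9 RPM in C24 X Col-0. Of the 6 listed glucosinolate loci that vary among accessions, 3 could be tested between the crosses. ESM1 and ESP were themselves chosen on this contrast, and the remaining one, AOP3 (AT4G03050), was not called with or without the replicate number as a block. Without the block the fit called 0 of all 16779 loci tested, so that result sets no gene apart.

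Immune receptors of the nucleotide-binding, leucine-rich repeat class, which detect pathogen proteins inside cells, were 4 of the members by their product names, of 22 such loci that met the minimum. AT1G61310 had 11.1 and 12.7 RPM in Col-0 X C24 and 0 and 1.99 RPM in C24 X Col-0. AT4G36140 had 9.39 and 9.61 RPM in Col-0 X C24 and 0 and 0.362 RPM in C24 X Col-0. AT5G46510, also called VICTL, had 6.16 and 8.20 RPM in Col-0 X C24 and 0 and 1.45 RPM in C24 X Col-0, with 47.8% of its windows shared with AT5G46520 and AT5G46270. The fourth, AT4G19510, lay next to the member AT4G19500, annotated as a transmembrane receptor with a nucleotide-binding fold. AT4G19500 had 13.5 and 16.7 RPM in Col-0 X C24 against 0.164 and 0.543 RPM in C24 X Col-0, and AT4G19510 had 6.77 and 12.4 RPM against 0.328 and 1.63 RPM in C24 X Col-0. All 4 receptors were low in absolute terms, and each was higher in C24 X Col-0 replicate 2 than in replicate 1. Of 9 listed resistance loci known to vary among accessions none was a member, and 4 could be tested. RPP1 (AT3G44480) had 11.8 and 38.2 RPM in Col-0 X C24 and 0.983 and 7.06 RPM in C24 X Col-0. The fit of edgeR with the replicate block called RPP1 higher (log2 difference 2.54, adjusted p = 0.00375), beside 2.24% of all loci. Without the block the fit called none of the 4, but it called 0 of all 16779 loci tested and so sets no gene apart. ALD1 (AT2G13810), an aminotransferase that starts the synthesis of the immune signal pipecolic acid, had 29.9 and 99.2 RPM in Col-0 X C24 and 0 and 2.90 RPM in C24 X Col-0, and DAR5 (AT5G66630, DA1-related protein 5) had 8.00 and 10.7 RPM in Col-0 X C24 and 0.492 and 1.27 RPM in C24 X Col-0.

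By product name, cytochrome P450 monooxygenases were 2 of the members, of 48 that met the minimum. CYP81D5 (AT4G37320) had 50.8 and 45.5 RPM in Col-0 X C24, against 0.656 and 0.906 RPM in C24 X Col-0, and its neighbour CYP81H1 (AT4G37310) had 34.0 and 52.6 RPM in Col-0 X C24 and 21.5 and 25.2 RPM in C24 X Col-0. CYP71B26 (AT3G26290) had 87.9 and 133 RPM in Col-0 X C24 and 1.48 and 9.42 RPM in C24 X Col-0. Glycosyl hydrolases and transferases, 2 of them annotated only as a putative endonuclease or glycosyl hydrolase, numbered 6 members of 151, with BGLU18 at the top and the UDP-glycosyltransferase AT4G09500 next, at 199 and 258 RPM in Col-0 X C24 and 12.5 and 34.8 RPM in C24 X Col-0. UGT71D1 (AT2G29730), a glucosyltransferase, had 15.4 and 25.7 RPM in Col-0 X C24 and 0.492 and 3.44 RPM in C24 X Col-0.

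Enzymes of amino acid and sugar metabolism included GAD3 (AT2G02000), a glutamate decarboxylase, which makes gamma-aminobutyric acid. GAD3 had 33.4 and 54.8 RPM in Col-0 X C24 and 0.656 and 0.724 RPM in C24 X Col-0, a ratio of 46.1, while its relative GAD4 (AT2G02010) had 4 and 0 reads in Col-0 X C24 and 10 and 17 reads in C24 X Col-0. CYSD2 (AT5G28020), a cysteine synthase, had 45.1 and 48.3 RPM in Col-0 X C24 and 8.19 and 8.51 RPM in C24 X Col-0. SIP1 (AT1G55740), of the raffinose synthase family, had 18.2 and 17.8 RPM in Col-0 X C24 and 0 and 3.08 RPM in C24 X Col-0. AT5G52810, an NAD(P)-binding Rossmann-fold protein, was much more abundant, with 421 and 452 RPM in Col-0 X C24 and 42.8 and 41.5 RPM in C24 X Col-0, so that the replicates of each cross were close.

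Several abundant members have less defined roles. TLP5 (AT1G43640), a tubby-like protein, had 397 and 584 RPM in Col-0 X C24 and 14.6 and 62.7 RPM in C24 X Col-0. AT5G39220, an alpha/beta hydrolase, had 389 and 397 RPM in Col-0 X C24 and 83.6 and 93.3 RPM in C24 X Col-0. AT3G52870, with a calmodulin-binding motif, had 146 and 184 RPM in Col-0 X C24 and 19.8 and 26.8 RPM in C24 X Col-0. Of the less abundant ones, AT2G27402, annotated as a plastid transcriptionally active protein, had 821 and 341 reads in Col-0 X C24, 126 and 96.4 RPM, against 0 and 3 reads in C24 X Col-0, and its ratio of 177 had a counting interval of 60.2 to 864. AT1G23960, of the DUF626 family of unknown function, had 77.3 and 108 RPM in Col-0 X C24 and 1.80 and 2.90 RPM in C24 X Col-0. AT1G06640, a 2-oxoglutarate-dependent oxygenase, stood apart in its spread, with 243 RPM in replicate 1 and 11.6 RPM in replicate 2 of Col-0 X C24, against 0 and 2.54 RPM in C24 X Col-0.

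Regulators were few. Of 579 transcription factor loci that met the minimum 1 was a member, MAF1 (AT1G77080, also FLM), a MADS-box repressor of flowering of the FLC clade. MAF1 had 257 and 111 reads, 39.5 and 31.4 RPM, in Col-0 X C24, against 0 and 7 reads, 0 and 1.27 RPM, in C24 X Col-0. Of the other 6 listed flowering loci, AGL31 (AT5G65050) came nearest, with 33.2 and 61.9 RPM in Col-0 X C24 and 5.41 and 9.06 RPM in C24 X Col-0, and FLC itself had 0.462 and 1.41 RPM in Col-0 X C24 and 2.62 and 10.9 RPM in C24 X Col-0. Of these 6, which the rule did not choose, edgeR's fit with the replicate number as a block called AGL31 higher and FLC lower in Col-0 X C24. Beside them, 2.24% of all loci were called higher and 4.42% lower. Without the block the fit called none of the 6, but it called 0 of all 16779 loci tested and so sets no gene apart. CYCD1;1 (AT1G70210), a D-type cyclin of the entry into the cell cycle, had 28.0 and 23.5 RPM in Col-0 X C24 and 1.48 and 5.61 RPM in C24 X Col-0.

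A single microRNA gene was among the members, and it was the only one among the 12776 loci at the minimum. MIR163 (AT1G66725, chromosome 1, 24884066 to 24884396) encodes miR163, which in this species directs the cleavage of mRNAs of small-molecule methyltransferases. Its precursor transcript had 72 and 44 reads, 11.1 and 12.4 RPM, in Col-0 X C24, against 0 and 3 reads, 0 and 0.543 RPM, in C24 X Col-0, a ratio of 20.4 with a counting interval of 6.71 to 101. These libraries measure the precursor and not the mature form. The mature sequence of 24 bases, chr1:24884359-24884382 of TAIR10.1 on the plus strand, is printed with the seed, bases 2 to 8, in capitals.
miR163: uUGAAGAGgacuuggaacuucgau

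A block of near-identical duplicated genes on chromosome 1, from 8767562 to 8837007, contained 10 members among 29 counted loci. It carries 5 copies of an F-box gene, whose products select proteins for degradation, 5 copies named LpxC1 to LpxC5 of a deacetylase that in bacteria makes lipid A, and several uncharacterized and noncoding loci. The coding sequences of 4 F-box copies were identical over 1302 bases and the fifth, AT1G25211, differed at 2 of them. Both differences, A351G and C1053T counted from the first base of the start codon with the base of AT1G24800 first, stand in capitals in the stretches below, taken from chr1:8770061-8770120 and chr1:8835725-8835784, then from chr1:8770763-8770822 and chr1:8836427-8836486, plus strand of TAIR10.1.
AT1G24800: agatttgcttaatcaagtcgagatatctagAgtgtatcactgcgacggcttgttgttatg
AT1G25211: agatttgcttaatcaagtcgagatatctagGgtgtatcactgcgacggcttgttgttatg
AT1G24800: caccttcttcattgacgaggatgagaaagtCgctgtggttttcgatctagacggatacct
AT1G25211: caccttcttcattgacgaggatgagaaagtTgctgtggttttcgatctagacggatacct

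Reads of such copies can be told apart only in part. Of the windows of AT1G24800, 90.5% were shared with another counted locus, and of those of AT1G25211, 84.6%. The 5 F-box copies ranged from 52.5 to 59.4 RPM and from 41.0 to 52.3 RPM in the Col-0 X C24 libraries, against 7.54 to 11.8 RPM and 7.43 to 10.1 RPM in the C24 X Col-0 libraries. Although so alike, 3 of them were members (AT1G24800, AT1G25150 and AT1G25211) and AT1G24881 and AT1G25055 missed the fold. Their counts are largely not separate measurements. The 4 LpxC copies with the same 981-base coding sequence were low, between 2.62 and 9.61 RPM in Col-0 X C24 and between 0.328 and 2.17 RPM in C24 X Col-0, and of them LpxC3 (AT1G25054) met the rule. LpxC2 (AT1G24880), annotated with a shorter coding sequence, had 29.2 and 73.2 RPM in Col-0 X C24 and 1.48 and 1.63 RPM in C24 X Col-0. It shared 71.0% of its windows, first of all with AT1G25098.

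The widest gaps of the block were in a second set of loci that share sequence among themselves. The long noncoding RNA AT1G25098 had 72.5 and 138 RPM in Col-0 X C24 and 0.328 and 1.45 RPM in C24 X Col-0, and the noncoding AT1G25175 had 8.93 and 24.3 RPM in Col-0 X C24 and 0 and 0.181 RPM in C24 X Col-0. The uncharacterized AT1G24822, AT1G24996 and AT1G25097 had 78 to 85 reads and 62 to 76 reads in the Col-0 X C24 libraries and no read in either C24 X Col-0 library. In these 5 loci and LpxC2, the RPM of Col-0 X C24 replicate 2 exceeded that of replicate 1, the reverse of the F-box copies. Of the 11 members with at least 50% of their windows shared with another counted locus, 10 lay in this block. The glutamine amidotransferase copies that alternate with them stayed under 4 RPM in all 4 libraries and none was a member.

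**Figure D3:**
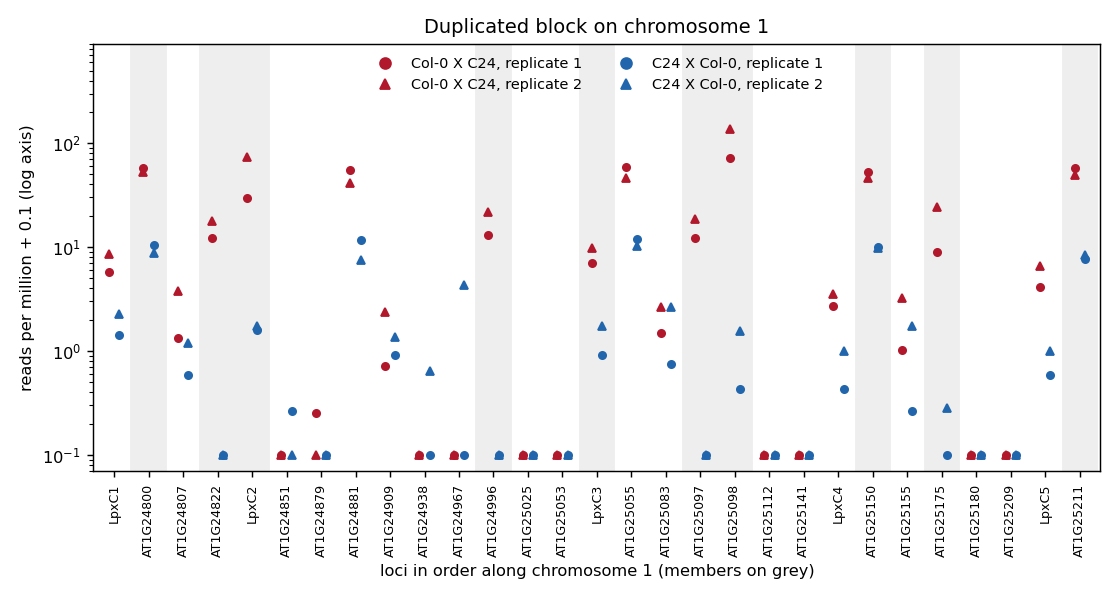
RPM plus 0.1 on a logarithmic axis for the 29 counted loci of the duplicated block on chromosome 1 in their order along it, with Col-0 X C24 libraries in red, C24 X Col-0 libraries in blue (circles replicate 1, triangles replicate 2) and members on grey. The 5 F-box copies repeat 1 pattern, 41.0 to 59.4 RPM in Col-0 X C24 and 7.43 to 11.8 RPM in C24 X Col-0, while 9 loci had no read in either Col-0 X C24 library.

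Besides this block, several members were neighbours. By the criterion of at most 3 loci apart, 23 members fell into 10 runs, 3 of which belong to the block. Among the others were PMEPCRA with AT1G11590, the knottin and receptor pairs, and the chromosome 3 pair AT3G27990 and AT3G27999, all described above. The rest were a pair of pseudogenes (AT2G13970 and AT2G13975), the pseudogene AT3G43955 with the cysteine proteinase AT3G43960, and AT4G22390 with AT4G22400. The neighbours were not always alike. AT3G43960 had 840 and 501 reads in Col-0 X C24 and 165 and 174 reads in C24 X Col-0, a ratio of 4.10, while AT3G43955 had 12.3 and 26.3 RPM in Col-0 X C24 and 0 and 0.181 RPM in C24 X Col-0. AT4G22400, uncharacterized, had 40 and 32 reads in Col-0 X C24 and none in C24 X Col-0, and AT4G22390, an F-box associated protein, had 25.7 and 28.8 RPM in Col-0 X C24 and 0.328 and 1.63 RPM in C24 X Col-0.

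The 7 members with no read in either C24 X Col-0 library can be given only a lower bound, taken against the floor of 3 reads in a library. AT3G48230, a DUF239 protein of unknown function, had 316 and 71 reads in Col-0 X C24, 48.6 and 20.1 RPM, and was at least 36.9-fold higher there. For the other 6, which were AT1G24822, AT1G24996 and AT1G25097 of the block, AT1G51010, AT4G22400 and the pseudogene AT5G56747, the bound lay between 11.3-fold and 24.1-fold. In a further 21 members the higher C24 X Col-0 value rested on 1 to 3 reads, so that their ratios carry wide counting intervals, as for AT1G11590.

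Loci that encode no protein were frequent among the members. Of the 121, 24 (19.8%) were annotated as other than protein coding, against 89 of 12766 annotated loci at the minimum (0.697%) and 9 of the 76 loci of the mirrored rule (11.8%), which exchanges the crosses and took 0.664% of the loci at its minimum. The 13 pseudogenes made up 10.7% of the members and 0.384% of the loci at the minimum. The most abundant was AT2G06950, on chromosome 2 from 2859226 to 2863434, with 1065 and 630 reads, 164 and 178 RPM, in Col-0 X C24, against 0 and 1 read in C24 X Col-0. Its ratio of 905 had a counting interval of 162 to 35777. AT2G11240 had 46.3 and 72.6 RPM in Col-0 X C24 and 0.492 and 2.72 RPM in C24 X Col-0, and AT3G28160 had 45.7 and 42.4 RPM in Col-0 X C24 and 0 and 2.72 RPM in C24 X Col-0. SADHU4-1 (AT5G28913), a noncoding retrotransposon annotated as a pseudogene, had 44.3 and 24.3 RPM in Col-0 X C24 and 3.44 and 4.35 RPM in C24 X Col-0. Summed over the 13, pseudogenes held 376 and 433 RPM in Col-0 X C24 and 5.24 and 16.8 RPM in C24 X Col-0.

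Long and other noncoding RNAs were 10 of the members, 8.26% against 0.298% of the loci at the minimum and 1 of the 76 loci of the mirrored rule. After AT1G25098, AT2G15292 was the highest, with 171 and 101 reads, 26.3 and 28.5 RPM, in Col-0 X C24 and 1 read in each C24 X Col-0 library. AT5G24735 had 19.9 and 20.3 RPM in Col-0 X C24 and 1.31 and 0.724 RPM in C24 X Col-0. The 10 summed to 196 and 269.6 RPM in Col-0 X C24 and 5.57 and 10.5 RPM in C24 X Col-0.

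The protein-coding members also had features that the rule did not use. A single exon was annotated in 26 of 97 (26.8%), against 9.66% at the minimum and 29.9% under the mirrored rule. An uncharacterized or hypothetical product was annotated in 17 (17.5%), against 4.15% at the minimum and 8.96% under the mirrored rule. At least 1 window of 80 bases was shared with another counted locus in 47 members (38.8%), against 16.3% at the minimum and 23.7% under the mirrored rule, and at least 50% of windows in 11 (9.09%), against 1.04% and 1.32%. Spans overlapped another counted locus in 34 members (28.1%) and in 30.9% of loci at the minimum. In 29 of the 34 the overlap was with a locus of the opposite strand. The overlaps ran from 1 base, in AT4G34881, to most of the locus, as in AT2G09795, and since the counting is not stated to use strand, reads from the overlapping bases cannot be told apart. The median transcript was 1571 bases long, against 1800 bases at the minimum. Chromosomes 1 to 5 held 43, 18, 20, 24 and 16 members, with 35.5% on chromosome 1 against 26.0% of the loci at the minimum. Of the 43 members on chromosome 1, 10 lay in the duplicated block, as did 10 of the 11 with at least 50% of windows shared. Counts of such copies are largely not separate measurements. All shares given here are descriptions without a test.

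**Figure D4:**
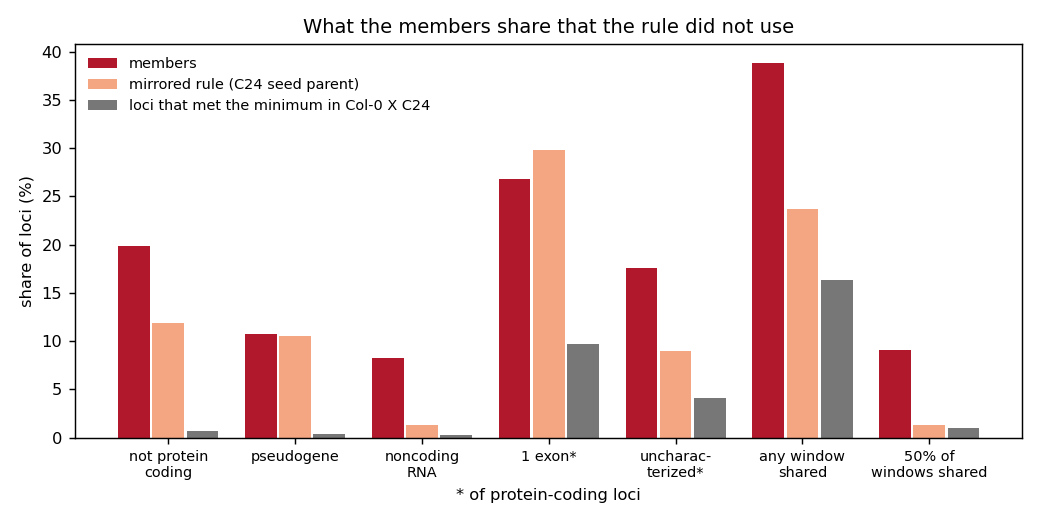
Share of loci, in percent, with each annotated feature among the 121 members (red), the 76 loci of the mirrored rule with C24 as seed parent (light red) and the loci that met the minimum in Col-0 X C24 (grey). Loci other than protein coding made up 19.8%, 11.8% and 0.697%, and loci with at least 50% of their windows shared 9.09%, 1.32% and 1.04%. Of the 11 members in this last class, 10 lay in the duplicated block on chromosome 1.

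Gene groups and lists are read beside the 0.947% of all loci at the minimum that were members. None of 301 ribosomal protein loci at the minimum was a member, and of 677 protein kinases 2 were, AT4G01330 at 40.3 and 27.4 RPM in Col-0 X C24 and 3.77 and 5.61 RPM in C24 X Col-0, and PERK15 (AT1G52290), a receptor kinase, at 21.2 and 22.0 RPM in Col-0 X C24 and 1.31 and 5.07 RPM in C24 X Col-0. The lists of 16 flavonoid and tannin genes, 9 endosperm regulators and 7 embryo regulators held no member, but they are too short for that to differ from this share. Of the 940 loci of the study's endosperm-specific list, 134 met the minimum, which were 1.05% of the annotated loci there, and 1 was a member (0.826% of the members), the transcribed pseudogene AT1G30935, at 6.31 and 8.76 RPM in Col-0 X C24 and 0 and 0.724 RPM in C24 X Col-0. The mirrored rule took 5 loci of that list among its 76 (6.58%), against 1.16% of the annotated loci at its minimum.

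Common promoter motifs were counted in the 250 bases before the annotated starts, as a description without a test. Here the shares set beside the members are of all counted loci with such a window, not only of those at the minimum. The letters TATAAA, the core of the TATA box, occurred on either strand in 65 of 121 (53.7%), against 45.8% of 32834 counted loci. The G-box CACGTG occurred in 6 (4.96%, against 5.83%), the W-box TTGACC, bound by WRKY factors of the defence response, in 9 (7.44%, against 11.7%), and the RY core CATGCA, bound by regulators of seed maturation, in 9 (7.44%, against 8.83%).

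A pair of further columns, marked N and named for replicate 1 of each cross, was not used by the rule. What the mark means is not given, and as they carry the names of samples that the rule did use, they are no separate replicates. They held 3876803 counts for Col-0 X C24 and 3395442 for C24 X Col-0. All 121 members were higher in the Col-0 X C24 column, as were 62.4% of the loci at the minimum, and 108 were at least 4 times higher, as were 2.11% of the loci at the minimum. The median log2 ratio, with 0.5 RPM added to both, was 3.94 for the members and 0.16 for the loci at the minimum. AT1G11590 had 382 RPM in the Col-0 X C24 column and 1.47 RPM in the C24 X Col-0 column, AT4G03930 had 546 and 20.3 RPM, and ESM1 had 103 RPM and no read.

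Several abundant members differed less in these columns. THI2.1 had 656 RPM in the Col-0 X C24 column and 462 RPM in the C24 X Col-0 column, a ratio of 1.42, whereas the rule's libraries had put it at 6.35. AT5G39130 was at 479 and 243 RPM (1.97), AT5G39220 at 454 and 178 RPM (2.55), AT2G43530 at 486 and 166 RPM (2.93) and BGLU18 at 1286 and 413 RPM (3.11). Among the other members under 4 were the oxygenase AT5G12270 (2.05) and UGT71D1 (2.14). Some abundant non-members were also lower there than in replicate 1. The seed coat list, which held no member, summed to 24156 RPM in Col-0 X C24 replicate 1 and 8824 RPM under the mark N. Its C24 X Col-0 sums were 40702 and 12499 RPM. TT4 (AT5G13930) went from 11042 to 974 RPM in Col-0 X C24 and from 22050 to 989 RPM in C24 X Col-0. The less abundant TT8 and AT5G39220 were higher in both columns. Whether such shifts lowered the members' ratios was not tested.

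**Figure D5:**
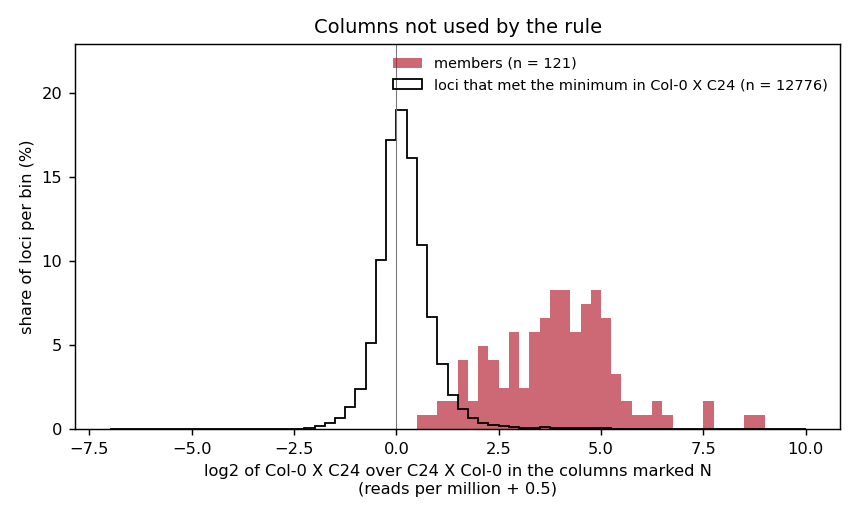
Distribution of the log2 ratio of Col-0 X C24 to C24 X Col-0 in the columns marked N, with 0.5 RPM added to both, as the share of loci per bin of 0.25, for the 121 members (red) and all 12776 loci that met the minimum (black line). The members centre on 3.94 and all lie above 0, while the loci at the minimum centre on 0.16.

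The rule took the lower and the higher of 2 replicates, so it favours loci whose replicates agree, and the contrast between replicates is given as a description only. With cross as a covariate, edgeR's quasi-likelihood test called 6 of the 121 members at an adjusted p under 0.05, against 9.91% of the 16779 loci tested (6.68% lower and 3.23% higher in replicate 2). With DESeq2 size factors, DESeq2's Wald test and no filter, 9, 5 and 9 members were called, against 12.6%, 7.72% and 8.19% of all loci. Of the members called, 5 were lower in the nuclease-treated replicate 2. These were PMEPCRA (log2 change -1.24, adjusted p = 0.0154), AT1G54020, a GDSL lipase (-1.34, 0.0236), MBP1 (-1.30, 0.0270), AT2G43530 (-1.26, 0.0334) and BGLU18 (-1.19, 0.0480). ALD1 was higher in replicate 2 (1.73, adjusted p = 0.0473). THI2.1, with the highest count, had a log2 change of -1.04 and an adjusted p of 0.102. The members' median log2 change was 0.09, against 0.07 for all loci tested. Within C24 X Col-0, replicate 2 was above replicate 1 in 94 of 121 members, and in 79.3% of the loci at the minimum. Within Col-0 X C24 it was above in 75 members, and in 70.1% of the loci at the minimum.

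For the contrast that the rule used, the fits are given only as a scale. For Col-0 X C24 relative to C24 X Col-0, edgeR's quasi-likelihood test called none of 16779 loci (0.0%) at an adjusted p under 0.05 and none of the 121 members, with 1251 loci and 119 members at an unadjusted p under 0.05, and DESeq2's Wald test called 91 members higher, against 0.691% of all loci. With the replicate number as a block edgeR called 6.66% of the loci, 2.24% as higher and the rest as lower, and 105 members, all higher. With no filter on low counts it called 98 members, against 0.668% of loci as higher, and without Col-0 X C24 replicate 2 it called 14 of the 56 members tested, against 0.0864%. The members' median log2 difference was 3.88 with the block and 3.84 without it. With 2 libraries against 2, leaving out a library can only relax the rule and add loci, so it cannot show how firm the members are. All 121 members were kept each time. The rule took 786 loci with C24 X Col-0 replicate 2 left out and 260 with Col-0 X C24 replicate 1 left out. How many loci it excluded thus rested on single libraries. TMM library sizes move the median log2 difference of all tested loci to 0.01 in place of 0.35 by column total. Under them the rule took 88 loci, 85 of them members.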

How the data were processed

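RNA of whole seeds was sequenced as paired reads on an Illumina instrument. The authors aligned the reads with BWA to the TAIR10 cDNA models, which are of accession Columbia, handled alignments with SAMtools 0.1.7 and deposited raw counts per locus. No sequence of C24 was used here. Columns of the 4 mRNA-seq libraries and of the mark N were used as deposited, and RPM was computed by column total. Tests used edgeR 4.0.16 in R 4.3.3 (TMM, robust quasi-likelihood, Benjamini-Hochberg over all loci with at least 10 counts in at least 2 libraries), and DESeq2 1.42.0 as an alternative, and were tested on simulated data. Replicate numbers pair the libraries, since replicate 2 of each cross had the nuclease treatment. The replicate changes of the crosses correlated across 16779 loci (Pearson's r = 0.557, across genes, which are no independent replicates). Annotation and sequence are from RefSeq TAIR10.1, whose nuclear sequence is that of TAIR10, and 32835 loci matched (97.7%). Windows were taken from the longest annotated transcript of each locus. The members and all lists were chosen with earlier results of these data known. Members were picked for naming as the 12 highest by lower Col-0 X C24 value, the 12 highest by ratio, all in fixed lists, all in runs of members, the 3 on each side of each threshold and the 3 highest of each product group, 55 in all. Of these, AT1G54050, AT4G20480 and AT4G33550 are not described above. Others, among them MIR163, MBP1, ALD1, CYCD1;1 and AT1G06640, were named for their function or spread after their values were seen. The interval of a ratio is an exact binomial one on both counts and covers counting error only.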

Additional observations from a re-analysis of the deposited data

How the results depend on the processing

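The count of 121 members stayed within 1.5 times under a fold of 3 (155), minimums of 2 RPM (158) and 10 RPM (84), TMM library sizes (88), DESeq2 size factors (87) and nuclear totals (120), and was 65 at a fold of 8. Leaving out 1 library at a time gave 137 to 786 loci, with 260 when Col-0 X C24 replicate 1 was left out and 786 when C24 X Col-0 replicate 2 was. This can only add loci, and all 121 members were kept each time. With the replicate block in the cross contrast, 1118 loci and 105 members were called, with DESeq2's Wald test 302 and 91, and with no filter on low counts 585 and 98, where edgeR's test without these called 0 and 0. Leaving out 1 library gave 0 to 46 loci and 0 to 14 members, the highest when Col-0 X C24 replicate 2 was left out, and with 1 library of that cross left out, 56 of the 121 members could be tested, the filter needing 2 libraries. The replicate contrast called 1663 loci and 6 members, and its alternatives 1295 to 2442 loci and 5 to 9 members. Without 1 library it could not be fitted. Of the 121 members, 108 were at least 4 times higher in the columns marked N with and without a minimum of 10 counts. The columns marked N hold 1 library a cross and allow no test.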
